A study of Homo sapiens with 6 samples.

Results

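The genes described here are 9 core genes of the Notch pathway, with the receptors NOTCH1, NOTCH2 and NOTCH3, the ligands JAG1 and JAG2, the glycosyltransferase LFNG and the target genes HES1, HEY1 and NRARP. They were taken by gene name from an authors' table of 58825 genes, in which each of the 9 names occurred once. HK-2 is a line of human proximal tubular epithelial cells immortalized with papillomavirus oncogenes. Poly(A) RNA was sequenced as 3 Control libraries of untreated cells and 3 libraries of cells that received oxidized low-density lipoprotein (OX-LDL, 25 μg/ml, 48 h). All came from the same line, and the cell protocol of the study includes a period of low serum before OX-LDL. The question of the comparison is which transcripts differ between lipid-loaded and untreated tubular cells.

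Notch receptors are single-pass membrane proteins that are activated by ligands of the Jagged and Delta families on a neighbouring cell. Binding allows an ADAM protease and then the γ-secretase complex to cut the receptor, and the freed intracellular part enters the nucleus and joins the DNA-binding protein RBPJ to switch on target genes. Fringe enzymes such as LFNG extend O-fucose sugars on the receptor and so alter how it responds to Jagged and Delta ligands. In the kidney, Notch signaling is known for patterning the proximal nephron and for its reactivation in injured tubules.

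LFNG was the member that rose after OX-LDL, to 2.31-fold of its Control level, and each OX-LDL library lay above each Control library. Each of the other 8 members missed the threshold, NOTCH1 most narrowly. The 3 target genes that are used as readouts of the pathway, HES1, HEY1 and NRARP, had overlapping groups. Levels are given as deposited FPKM (fragments per kilobase, relative to the size of the library), and log2 fold changes are those of OX-LDL relative to Control in edgeR's quasi-likelihood model of the deposited estimated counts. SE stands for the standard error of a log2 fold change, and adjusted p-values are edgeR's unless another tool is named. A gene was called with a p-value under 0.05 after Benjamini-Hochberg adjustment over 19510 genes, those whose mean level reached 0.1 FPKM, all 9 members among them. By this rule 1 of 9 members was called (11.1%), where 15.3% of all genes tested were called, 7.91% as higher and 7.42% as lower. With the study's fold limits (above 2 or below 0.5), applied here together with an unadjusted p under 0.05, the count was again 1 of 9, against 6.36% of all genes. Without a limit on the fold, the unadjusted p-value was under 0.05 for LFNG, NOTCH1 and JAG2, 3 of 9 members, against 30.4% of all genes. The same 3 members had groups that did not overlap in FPKM (33.3%), against 37.2% of all genes. The median log2 fold change was 0.25 over the members and near 0 over all genes tested. With 9 genes, in which a single gene is 11.1%, these shares lay near those of all genes.

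The libraries held 62561347 to 76797607 deposited counts. A count of 4 was 3.26 times as common among genes as the counts beside it, so about 4 counts were taken to stand for 1 read pair, which puts the depth at 15640337 to 19199402 read pairs. Of 15 markers of tubular epithelium, 10 had over 12 counts in each library, among them PAX8, EPCAM, KRT8 and KRT18. The endocytic receptor LRP2, which defines mature proximal tubule, had 0 counts in each library, and the means of CUBN, AQP1 and CDH1 were 0.0193 to 0.106 FPKM in both groups. The 15 markers summed to 210 to 236 FPKM in Control and 265 to 303 FPKM in OX-LDL, and they did not move one way. The keratins KRT8 (37.5 ± 6.5 to 65.4 ± 4.96 FPKM, adjusted p = 0.0116) and KRT19 (5.47 ± 0.481 to 20.6 ± 4.83 FPKM, adjusted p = 0.00207) and the cadherin CDH2 (adjusted p = 0.0367) rose. PAX8, a transcription factor of the renal lineage, fell from 46.6 ± 12.9 to 19.4 ± 4.17 FPKM (adjusted p = 0.0182). PAX2 and SLC5A2 were lower in each OX-LDL library than in each Control library but were not called (adjusted p = 0.0781 and 0.0826). The summed level of 7 leukocyte markers was 3.15 to 7.79 FPKM in Control and 9.17 to 14.1 FPKM in OX-LDL, most of it CD68. CD68 itself was not called (edgeR, adjusted p = 0.0858), and the defining leukocyte marker PTPRC had at most 8 counts in any library. The 7 endothelial markers summed to 4.33 to 5.54 FPKM in Control and 3.94 to 5.10 FPKM in OX-LDL, most of it EGFL7 and ESAM. CDH5 had at most 4 counts in any library and PECAM1 at most 65. The 7 fibroblast markers summed to 10.1 to 12 FPKM in Control and 8.82 to 14.1 FPKM in OX-LDL, most of it LUM. The part of these markers in the results below was not tested. In bulk libraries, more RNA per cell and more cells that express a gene cannot be told apart. Nothing in the labels ties the 3 libraries of a group to separate experiments, so p-values measure the spread between these libraries, which may be technical.

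**Figure D1:**
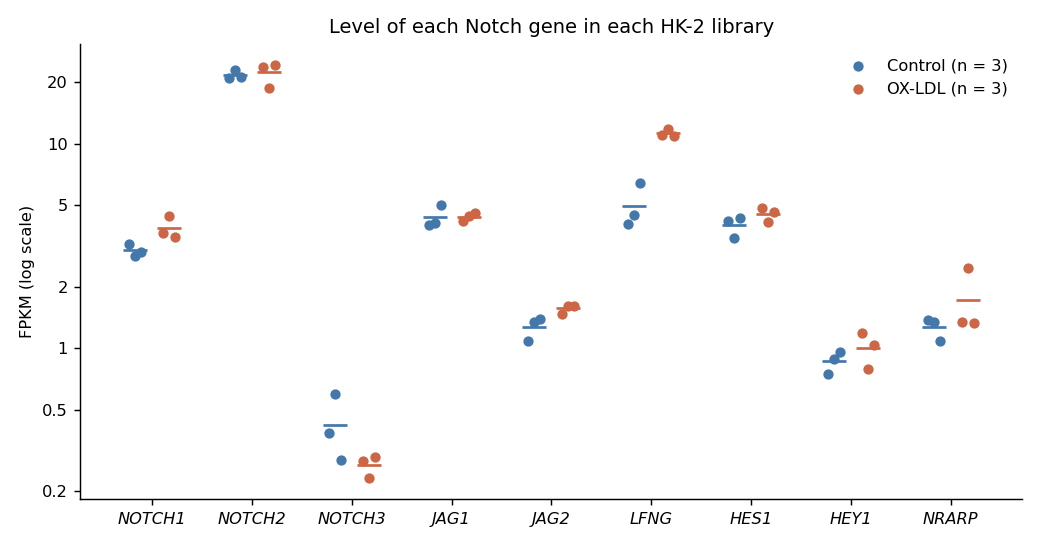
FPKM of the 9 Notch genes on a log scale, with 1 point per library and a line at the mean of each group (3 Control and 3 OX-LDL libraries). NOTCH2 is the highest gene in both groups, and LFNG is the gene whose groups lie farthest apart, with 4.04 to 6.44 FPKM in Control and 10.9 to 11.8 FPKM in OX-LDL.

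LFNG (ENSG00000106003, chr7:2512529-2528429 on the plus strand of GRCh38) encodes lunatic fringe, a Golgi enzyme that adds N-acetylglucosamine to O-fucose on Notch receptors. Its level was 4.04, 4.50 and 6.44 FPKM in Control replicates 1 to 3. In OX-LDL replicates 1 to 3 it was 11.1, 11.8 and 10.9 FPKM. The OX-LDL libraries were close to each other, while Control replicate 3 stood above the other two Control libraries, and the groups did not overlap. Over 3 libraries each, the means (± SD) were 4.99 ± 1.27 and 11.3 ± 0.479 FPKM. On the log2 scale LFNG rose by 1.21 (SE 0.18, 95% interval 0.79 to 1.63), and edgeR gave an adjusted p of 0.00829. It kept an adjusted p-value under 0.05 in all 14 alternative fits, with log2 fold changes of 1.06 to 1.43 and adjusted p-values of 1.22e-08 to 0.0387. Only the microRNA gene MIR4648 overlaps LFNG in the table, with at most 4 counts.

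LFNG is 1 of 3 human fringe genes. The other fringe genes are MFNG, which was under the minimum level for the test, and RFNG. RFNG encodes radical fringe and was singled out here after its values had been seen. RFNG was at 1.53, 2.00 and 1.29 FPKM in Control and 1.03, 1.03 and 0.976 FPKM in OX-LDL. Each OX-LDL library lay below each Control library, but the log2 fold change of -0.63 (SE 0.19) missed the threshold in edgeR (adjusted p = 0.0724), while DESeq2 called it. LFNG made up 72.6%, 69.2% and 82.7% of the summed FPKM of the 3 fringes in Control. In OX-LDL its share was 91.1%, 91.9% and 91.6%, above each Control library. The level of LFNG was 2.25 to 5.00 times that of RFNG in Control and 10.7 to 11.5 times in OX-LDL.

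**Figure D2:**
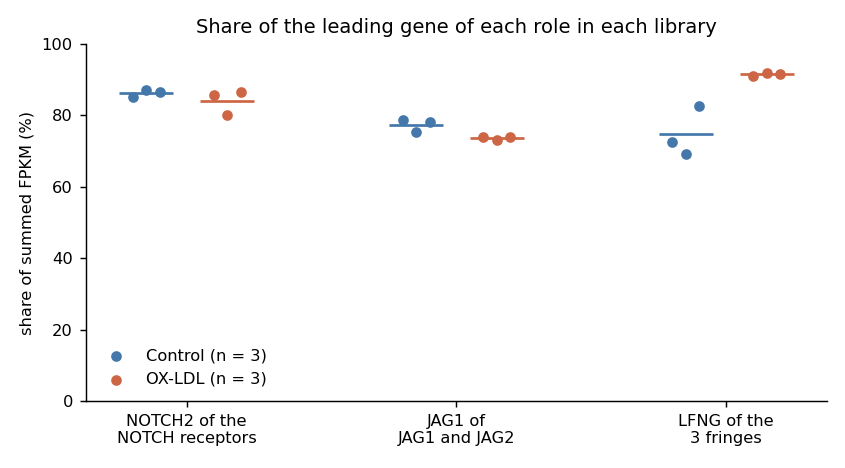
Share of the summed FPKM held by NOTCH2 among the NOTCH receptors, by JAG1 among JAG1 and JAG2, and by LFNG among the 3 fringes, with 1 point per library and a line at the group mean (n = 3 per group). The share of LFNG is 69.2 to 82.7% in Control and 91.1 to 91.9% in OX-LDL. That of JAG1 is 75.3 to 78.7% in Control and 73.2 to 74.0% in OX-LDL, also without overlap, whereas that of NOTCH2 overlaps between the groups.

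As RBPJ binds DNA through a short motif, promoter windows of RefSeq (GRCh38.p14, 250 bases before to 50 after the transcription start) were searched for TGGGAA, the core of the RBPJ binding motif, on both strands. Windows were held for 8 of the 9 members, all but HEY1. The core was found in HES1 and LFNG and in 24% of all 35116 windows. HES1 is the textbook target of RBPJ and is printed for its 2 cores, and LFNG is printed because it was the member that rose, with 1 core in the window of each of its 2 annotated starts. Capitals mark the core or its reverse complement, on the strand of the gene.
HES1, chr3:194136052-194136095, plus strand: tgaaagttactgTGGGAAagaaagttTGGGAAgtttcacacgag
LFNG, first start, chr7:2512512-2512529, plus strand: ctctgcaaatccTTCCCA
LFNG, second start, chr7:2517613-2517632, plus strand: ccTGGGAActgtggggagat
In HES1 the matches to TGGGAA lay at -84 to -79 and at -70 to -65 from the start, in the same direction. Only these exact letters were searched, so a site with other letters stays unmarked. The marked pair need not be the sites that RBPJ binds. At least 2 cores were held by 3.8% of all windows. The first core of HES1 is part of the longer motif GTGGGAA, which overlaps TGGGAA and was found in 6.25% of all windows and in no window of the other members. These are matches of letters, and binding was not measured.

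Among the receptors, NOTCH2 (ENSG00000134250, chr1:119911553-120069662) was the most abundant. Its level was 21.1, 23.1 and 21.3 FPKM in Control and 23.9, 18.8 and 24.4 FPKM in OX-LDL. OX-LDL replicate 2 was the lowest and replicates 1 and 3 the highest of the 6 libraries, so the groups overlapped. NOTCH2 had a log2 fold change of 0.07 (SE 0.11, 95% interval -0.18 to 0.32, adjusted p = 0.723), and without OX-LDL replicate 2 it was 0.18. NOTCH2 shares near-identical sequence with copies such as NOTCH2NLA, for which 0, 440 and 135 counts are listed in Control against 339, 546 and 358 in OX-LDL, beside at least 34038 counts of NOTCH2 in each library. The authors' counting could have divided reads between the copies, so both are uncertain. Coordinates are those of the deposited table (GRCh38), in which LFNG and HES1 lie on the plus strand and the other members on the minus strand.

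NOTCH1 (ENSG00000148400, chr9:136494433-136546048) is the receptor best known from T-cell and epithelial biology. Its level was 3.24, 2.83 and 2.97 FPKM in Control and 3.66, 4.45 and 3.52 FPKM in OX-LDL, with no overlap between the groups. Its log2 fold change of 0.39 (SE 0.12, 95% interval 0.11 to 0.68) came with an adjusted p of 0.0706. It passed the threshold in DESeq2 (adjusted p = 0.0247) and when edgeR was limited to genes whose mean reached 1 FPKM (adjusted p = 0.0432). Both settings also called a larger share of all genes. DESeq2 called 4430 of 19510 and the 1 FPKM minimum 3152 of 12259, against 2991 of 19510 in the full fit. Over all alternatives the adjusted p-value ran from 0.0247 to 0.199, and the log2 fold change from 0.28 to 0.46.

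NOTCH3 (ENSG00000074181, chr19:15159038-15200995), a receptor best known from vascular smooth muscle, was the lowest of the 9 members. It had 0.388, 0.598 and 0.285 FPKM in Control and 0.283, 0.232 and 0.293 FPKM in OX-LDL. Control replicate 2 was the highest library, and the lowest Control library lay inside the range of OX-LDL. For NOTCH3 the log2 fold change was -0.61 (SE 0.29, 95% interval -1.30 to 0.08, adjusted p = 0.212). Without Control replicate 2 it was -0.29. NOTCH2 held 85.2%, 87.0% and 86.6% of the summed receptor FPKM in Control and 85.7%, 80.0% and 86.5% in OX-LDL. NOTCH4 added 19 to 32 counts per library in Control and 4 to 21 in OX-LDL, and was under the minimum for the test.

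**Figure D3:**
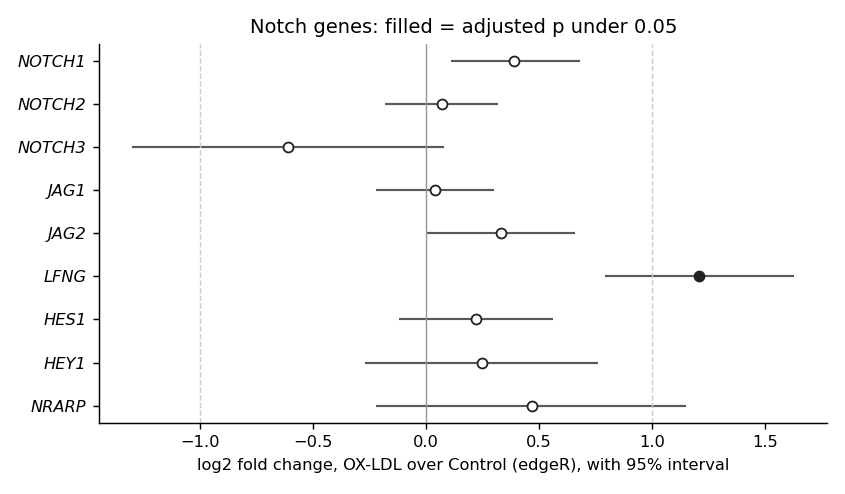
Log2 fold change (OX-LDL over Control) of the 9 Notch genes from edgeR with its 95% interval, over 3 libraries per group. The filled point, LFNG at 1.21, is the member with an adjusted p-value under 0.05, and dashed lines mark a fold of 2 and of 0.5.

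The ligand JAG1 (ENSG00000101384, chr20:10637684-10673999) activates receptors on neighbouring cells. It was at 4, 4.1 and 5.01 FPKM in Control and 4.18, 4.42 and 4.60 FPKM in OX-LDL. All OX-LDL libraries lay inside the Control range. With a log2 fold change of 0.04 (SE 0.11), JAG1 differed by less than the spread of its libraries, and the 95% interval of -0.22 to 0.30 leaves out a fold of 2 in either direction (adjusted p = 0.842).

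The second Jagged ligand, JAG2 (ENSG00000184916, chr14:105140982-105168824), was at 1.09, 1.34 and 1.39 FPKM in Control and 1.47, 1.62 and 1.62 FPKM in OX-LDL. The groups did not overlap, and the log2 fold change was 0.33 (SE 0.14, 95% interval 0.00 to 0.66). Adjusted p was 0.159 in the fit of all libraries, and 0.0958 to 0.335 over the alternatives, so JAG2 was not called in any of them. JAG1 held 78.7%, 75.3% and 78.2% of the FPKM of both Jagged ligands in Control and 73.9%, 73.2% and 74.0% in OX-LDL. The Delta ligands DLL1 and DLL4 had at most 8 and 14 counts in any library and were not tested.

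HES1 (ENSG00000114315, chr3:194136148-194138732) encodes a repressor of the basic helix-loop-helix class that is induced by Notch, and by other signals too. It was at 4.2, 3.47 and 4.35 FPKM in Control and 4.85, 4.17 and 4.67 FPKM in OX-LDL. OX-LDL replicate 2 lay inside the Control range and the other two OX-LDL libraries above it. HES1 had a log2 fold change of 0.22 (SE 0.14, 95% interval -0.12 to 0.56, adjusted p = 0.367).

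NRARP (ENSG00000198435, chr9:137299631-137302271) encodes a small ankyrin-repeat protein that binds the Notch nuclear complex and feeds back on it. It was at 1.38, 1.35 and 1.09 FPKM in Control and 1.35, 2.47 and 1.33 FPKM in OX-LDL. OX-LDL replicate 2 alone was above the Control range. The log2 fold change of 0.47 (SE 0.29, 95% interval -0.22 to 1.15, adjusted p = 0.334) was 0.11 without that library.

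HEY1 (ENSG00000164683, chr8:79764010-79767857) encodes a related repressor of the hairy family. It was at 0.754, 0.891 and 0.961 FPKM in Control and 1.19, 0.790 and 1.04 FPKM in OX-LDL. OX-LDL replicate 2 fell inside the Control range, and the other two OX-LDL libraries were above it. HEY1 had a log2 difference of 0.25 (SE 0.22, 95% interval -0.27 to 0.76, adjusted p = 0.509). OX-LDL replicate 2 was thus the highest OX-LDL library for NOTCH1, LFNG and NRARP and the lowest for NOTCH2, NOTCH3, HES1 and HEY1. The interval of HES1 and that of HEY1 ended below a 2-fold rise, whereas that of NRARP did not.

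By mean level in Control the order was NOTCH2 (21.8 FPKM), LFNG (4.99), JAG1 (4.37), HES1 (4.01), NOTCH1 (3.01), JAG2 (1.27), NRARP (1.27), HEY1 (0.869) and NOTCH3 (0.424). The ranges of LFNG and JAG1, of JAG1 and HES1, and of JAG2 and NRARP overlapped. In OX-LDL the order was NOTCH2 (22.4 FPKM), LFNG (11.3), HES1 (4.56), JAG1 (4.40), NOTCH1 (3.88), NRARP (1.72), JAG2 (1.57), HEY1 (1.01) and NOTCH3 (0.270). There the range of LFNG no longer met that of its lower neighbour, while HES1 and JAG1, JAG1 and NOTCH1, and NRARP and JAG2 overlapped. The order holds for the gene lengths behind the authors' FPKM, which counts and FPKM together put at 2.43 kb for HES1, 4.12 kb for LFNG and 23.5 kb for NOTCH2.

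**Figure D4:**
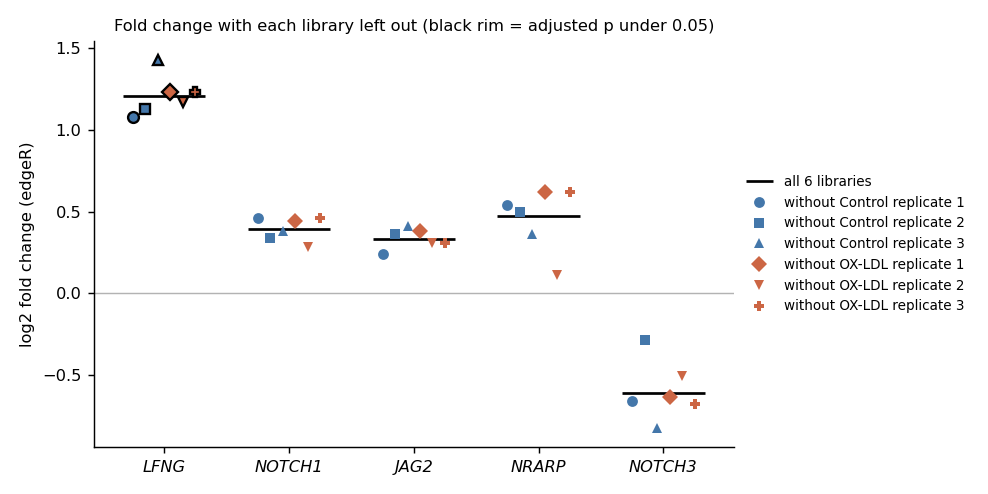
Log2 fold change from edgeR for LFNG, NOTCH1, JAG2, NRARP and NOTCH3 with each of the 6 libraries left out in turn, and a black line for the fit of all 6. LFNG stays between 1.08 and 1.43, while NRARP is at 0.11 without OX-LDL replicate 2 and NOTCH3 at -0.29 without Control replicate 2.

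A further 64 genes of the pathway were listed by role, and 51 of them reached the minimum of 0.1 FPKM for the test. Of the 51, 5 were called as higher and 5 as lower, together 19.6%, where 15.3% of all genes tested were called. Their median log2 fold change was -0.06. The 10 calls of the full fit became 16 in DESeq2 and 5 with a replicate block. They were 7, 5 and 6 without Control replicates 1, 2 and 3, and 2, 14 and 4 without OX-LDL replicates 1, 2 and 3. Over all genes tested, the 2991 calls of the full fit became 4430 in DESeq2 and 1636 with a replicate block. With 1 library left out, 1161 to 2943 of all genes were called. The genes NCSTN and CREBBP were called in all 14 alternative fits. The 13 genes left out by this minimum level, HES2, HES5 and HEY2 among them, had at most 74 counts in any library. Of the 13, 7 had at most 12 counts, which is 3 read pairs and was taken as the detection limit.

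Of 8 tested genes for cutting the receptor, 1 was called (12.5%, against 15.3% of all genes). NCSTN, which encodes the nicastrin subunit of γ-secretase, rose from 25.5 ± 0.0770 to 33.1 ± 0.796 FPKM (mean ± SD of 3 libraries, as for the genes that follow), or by 0.41 on the log2 scale (SE 0.06, adjusted p = 0.0085). COPA overlaps NCSTN on the other strand with 23246 to 41960 counts per library, and whether counting used the strand is not given in the sources used here, so the value of NCSTN is uncertain. The proteases ADAM10 and ADAM17 were not called in edgeR, and DESeq2 called ADAM10 of these.

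Of 8 tested nuclear activators, 1 was called as higher and 2 as lower (together 37.5%, against 15.3% of all genes, 7.91% as higher and 7.42% as lower). RBPJ, the DNA-binding partner of cleaved Notch, rose from 9.19 ± 0.230 to 11.3 ± 0.307 FPKM, a log2 difference of 0.33 (SE 0.07) with adjusted p = 0.0197. The histone acetyltransferase gene CREBBP, a coactivator for many factors, fell from 8.64 ± 0.414 to 5.30 ± 0.101 FPKM, a log2 difference of -0.67 (SE 0.06) with adjusted p = 0.00224. Its close relative EP300 fell by 0.31 on the log2 scale (SE 0.07, adjusted p = 0.0275). The highest gene of the group, SNW1, was not called (-0.20 on the log2 scale, adjusted p = 0.107). RBPJ and EP300 each kept their call in 9 of 14 alternative fits.

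Of 10 corepressors, all tested, 1 was called as higher and 2 as lower (together 30%, against 15.3% of all genes). SPEN, which holds RBPJ in a repressed state when Notch is off, fell from 16.6 ± 1.28 to 11.5 ± 0.731 FPKM, a log2 difference of -0.50 (SE 0.09, adjusted p = 0.0147). NCOR1, a further corepressor gene, fell by 0.44 on the log2 scale (SE 0.09, adjusted p = 0.0242). PIGL overlaps NCOR1 on the other strand with 215 to 394 counts. TLE4, which encodes a Groucho corepressor used by HES proteins, rose by 0.77 on the log2 scale (SE 0.14, adjusted p = 0.0158). TLE1, the most abundant of the group over all 6 libraries, stood just outside the threshold (0.32 on the log2 scale, adjusted p = 0.0504) and was called in 4 of 14 alternative fits, DESeq2 among them (DESeq2, adjusted p = 0.0177). SPEN kept its call in 13 of 14 alternative fits, TLE4 in 12 and NCOR1 in 9.

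Of 14 tested genes for turnover and ubiquitin ligation, 3 were called (21.4%, against 15.3% of all genes). DTX4, which encodes a deltex-type ubiquitin ligase, rose from 1.54 ± 0.482 to 3.57 ± 0.657 FPKM, by 1.24 on the log2 scale (SE 0.25, adjusted p = 0.0206). NUMBL, related to the Notch antagonist NUMB, rose from 2.13 ± 0.311 to 3.33 ± 0.168 FPKM, by 0.67 on the log2 scale (SE 0.13, adjusted p = 0.0189). MIB2, a ligase for Notch ligands, fell from 1.61 ± 0.118 to 0.904 ± 0.165 FPKM, a log2 difference of -0.79 (SE 0.16, adjusted p = 0.0203). The unnamed gene model AL691432 overlaps MIB2 on the other strand with 66 to 149 counts. DTX4 and MIB2 each kept their call in 10 of 14 alternative fits and NUMBL in 9. DTX3L, the most abundant of the group, was not called (0.16 on the log2 scale, adjusted p = 0.305).

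Among the remaining roles, 3 further ligands, 4 genes for sugar addition and 4 other HES and HEY factors were tested. Over all 6 libraries edgeR and limma called 0 of these genes. DESeq2 called 3, all among the genes for sugar addition (POFUT1, POGLUT1 and RFNG). Of all 19510 genes, edgeR called 2991 (15.3%), limma 2914 to 2925 and DESeq2 4430. Unadjusted, 1 of 3 further ligands, 3 of 4 genes for sugar addition and 0 of 4 other HES and HEY factors had a p-value under 0.05, against 30.4% of all genes. DESeq2 gave 0.0310 as the adjusted p of POFUT1, which encodes the enzyme that places O-fucose on the receptor, where edgeR gave 0.0604 (0.23 on the log2 scale in both) and 0.0381 with a minimum of 1 FPKM. CCN3, a secreted protein that can bind NOTCH1, was at 23.3 to 25.0 FPKM in Control and 18.0 to 21.8 FPKM in OX-LDL. CCN3 had a log2 difference of -0.29 (SE 0.10), with adjusted p = 0.0928, and 0.0241 without OX-LDL replicate 2. HES4 ranged from 2.31 to 5.84 FPKM in Control, which spans all its OX-LDL values of 3.31 to 4.91 FPKM.

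**Figure D5:**
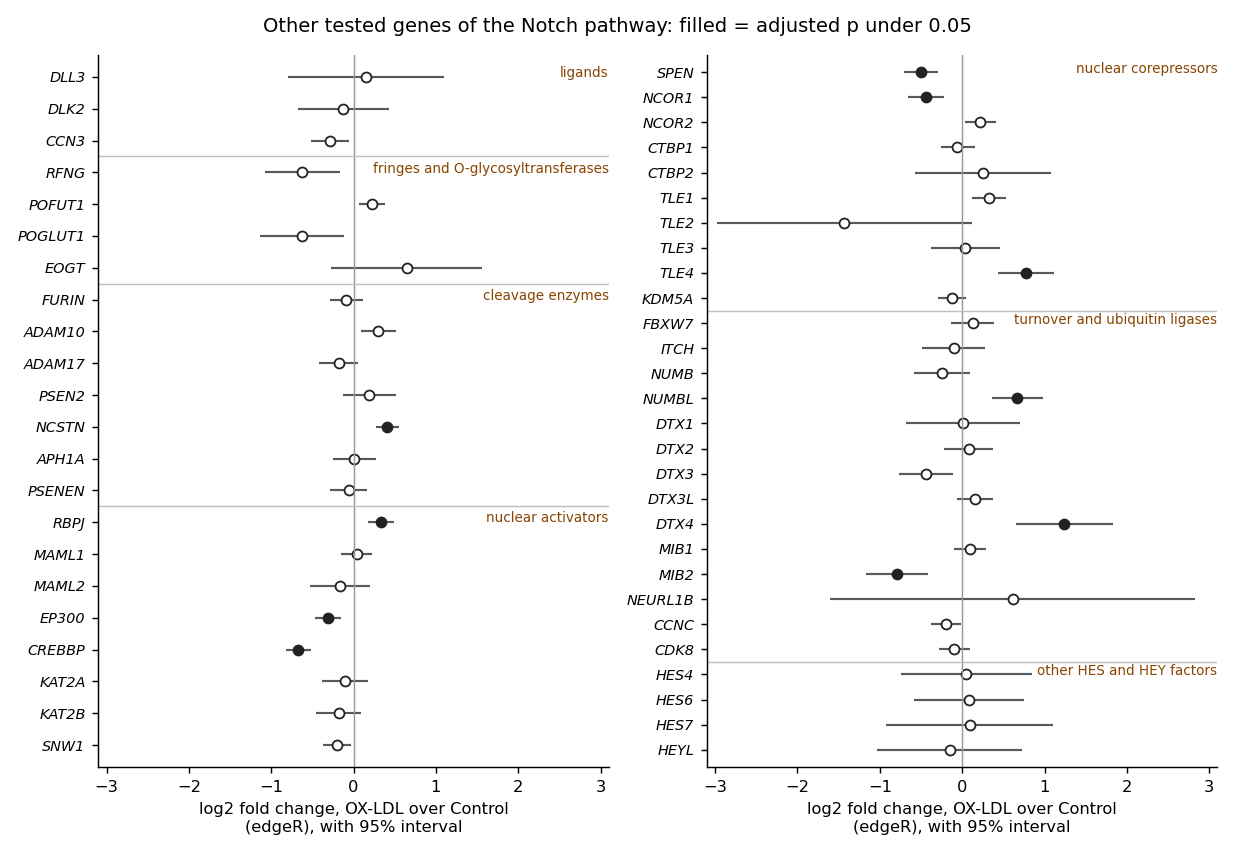
Log2 fold change (OX-LDL over Control) from edgeR with its 95% interval for other pathway genes that were tested, grouped by role, over 3 libraries per group. Filled points mark the 10 genes with an adjusted p-value under 0.05, from DTX4 at 1.24 to MIB2 at -0.79.

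As a description over 6 libraries, the genes whose log2(FPKM + 0.1) pattern was most like that of LFNG, compared with 12258 genes whose mean reached 1 FPKM, were NSMCE1 (Pearson's r = 0.999) and NUMBL (r = 0.998). For NOTCH1 they were PTGER2 (0.990) and ERV3-1 (0.988), and for JAG2 PLEKHO2 (0.993) and EML3 (0.990). The libraries of a treatment group are shared by all genes, and 314 genes reached 0.95 with LFNG, 76 with NOTCH1 and 31 with JAG2.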

How the data were processed

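RNA-seq was analysed in 6 libraries grouped by their titles, 3 Control and 3 OX-LDL. The submitters' processing notes name cutadapt (version 1.9), HISAT2 (version 2.0.4), StringTie (version 1.3.4d) and GRCh38. The authors deposited 1 table with estimated counts, which are whole numbers not scaled for library size, and with FPKM, where a count of 0 is listed at 0.0001. Across the table FPKM equals counts over library total and 1 length per gene. No 2 libraries of a group were copies (chi-square of 14.9 to 25.6 per gene, on counts divided by 4).

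TMM factors, glmQLFit and glmQLFTest of edgeR (version 4.0.16, R version 4.3.3) were applied to the counts with the group as the only term. Standard errors are the log2 fold change over the square root of F. With 3 against 3 libraries an exact permutation test cannot go below a two-sided p of 0.1, so p-values come only from fits across all genes. Alternatives used DESeq2 (version 1.42.0), limma (version 3.58.1) on log2(FPKM + 0.1) and log2(FPKM + 1), other scalings and minimum levels, a replicate block and leaving out each library. Intervals of a log2 fold change rest on the standard errors of the edgeR fit, which include the spread between libraries.

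The members and lists were chosen with earlier results of these data known. Named were all members, called pathway genes (at most 4 per role), the most abundant gene per role, the 2 genes most like each of the 3 members with the smallest p-values, and markers. RFNG, NOTCH2NLA, COPA, DLL1, DLL4 and other uncalled or untested pathway genes were added after their values were seen. A pathway gene that is included in the counts is not reported here by name.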

Additional observations from a re-analysis of the deposited data

How the results depend on the processing

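LFNG was called, and rose, in the full fit and in all 14 alternatives. The number of members called was 2 in DESeq2 and with a minimum of 1 FPKM, where NOTCH1 joined LFNG, and 1 in the other 12 alternatives; HEY1 and NOTCH3 lie under that minimum. The other pathway genes called, 10 in the full fit, were 16 in DESeq2 and 2 to 14 with 1 library left out. The cause was not tested. Of the 9 members, the called pathway genes and the most abundant gene per role, 3 had log2 fold changes that changed sign with 1 library left out, NOTCH2 (-0.00 to 0.18, just below 0 without OX-LDL replicate 3), JAG1 (-0.01 to 0.15) and HES4 (-0.23 to 0.38), none of them called in any fit. Over all 19510 genes tested, 2991 were called in the full fit, 4430 in DESeq2 and 1161 to 2943 with 1 library left out. With a minimum of 1 FPKM, 3152 of 12259 genes were called.

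The labels give both groups replicate numbers 1 to 3. Deviations from the group means of same-numbered libraries correlated at -0.041, -0.003 and 0.036 across genes, so the numbers were not taken as pairs. With a replicate block, 1 member and 5 other pathway genes were called (1636 over all genes), and the log2 fold change of LFNG was 1.24 (edgeR, adjusted p = 0.0277). FPKM rescaled to TPM moved no member's ratio of means beyond its spread. Genes under about 12 counts are below what this depth detects.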
